A study of Mus musculus with 20 samples.

Results

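The genes described here are the aryl hydrocarbon receptor (AhR) and the genes most used as readouts of its activity, in mouse liver. They were taken by symbol: Ahr, its partner Arnt, the repressors Ahrr and Tiparp, the cytochrome P450 genes Cyp1a1, Cyp1a2 and Cyp1b1, and the aldehyde dehydrogenase gene Aldh3a1. All 8 were measured, each by 1 probe set, among 16464 probe sets with a gene symbol. All livers were from male C57BL/6 mice, 10 weeks old and of 21 to 27 g, that were dosed by oral gavage for 25 days. One group received the synthetic estrogen ethinylestradiol (EE2; 3.70 mg/kg) dissolved in sunflower oil, and its control group received oil. The other treated group received the antipsychotic chlorpromazine (CPZ; 10 mg/kg) dissolved in PBS, and its control group received PBS. The labels name no genetic change. There were 5 arrays in each of the 4 groups, and an array is called by its sample number from the labels. These do not say that each sample is a separate mouse, so a p-value reflects only the spread among these samples, which may be technical.

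AhR is a transcription factor of the bHLH-PAS family that waits in the cytoplasm with chaperones until it binds a ligand such as dioxin or a tryptophan metabolite. It then enters the nucleus, pairs with ARNT and binds DNA elements with the core GCGTG, which switches on Cyp1a1, Cyp1a2, Cyp1b1, Tiparp, Ahrr and Aldh3a1. AHRR and TIPARP act back on the receptor as repressors. In liver, Cyp1a2 is known for high expression without any added ligand, mostly in hepatocytes around the central vein, whereas Cyp1a1 is known to be low until a ligand is present. CYP1A2 and CYP1B1 also hydroxylate estrogens to catechol estrogens.

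The promoters below are shown for Cyp1a2 and Tiparp, which were called with EE2, for Arnt, whose responses to the treatments differed, and for Cyp1a1, the chromosomal neighbour of Cyp1a2. They are RefSeq sequences of GRCm38.p6, from 250 bases before to 50 bases after the start of the gene, written 5′ to 3′ on the strand of the gene, with capitals marking each GCGTG or its reverse complement CACGC. The table of promoters held 6 of the 8 genes. Cyp1a2 lies at chr9:57683606-57683905 on the minus strand, Cyp1a1 at chr9:57697363-57697662 on the plus strand, Tiparp at chr3:65528197-65528496 on the plus strand and Arnt at chr3:95434140-95434439 on the plus strand.
Cyp1a2: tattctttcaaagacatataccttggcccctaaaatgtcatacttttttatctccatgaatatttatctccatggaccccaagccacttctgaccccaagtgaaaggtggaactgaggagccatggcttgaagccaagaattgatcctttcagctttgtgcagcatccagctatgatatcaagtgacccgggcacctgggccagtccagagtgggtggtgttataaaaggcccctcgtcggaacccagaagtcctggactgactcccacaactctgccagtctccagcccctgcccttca
Cyp1a1: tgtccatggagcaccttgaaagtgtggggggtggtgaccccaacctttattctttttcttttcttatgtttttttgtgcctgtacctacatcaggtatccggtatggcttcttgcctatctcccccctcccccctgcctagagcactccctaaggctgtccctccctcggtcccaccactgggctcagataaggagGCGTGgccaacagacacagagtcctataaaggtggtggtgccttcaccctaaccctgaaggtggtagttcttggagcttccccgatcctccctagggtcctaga
Tiparp: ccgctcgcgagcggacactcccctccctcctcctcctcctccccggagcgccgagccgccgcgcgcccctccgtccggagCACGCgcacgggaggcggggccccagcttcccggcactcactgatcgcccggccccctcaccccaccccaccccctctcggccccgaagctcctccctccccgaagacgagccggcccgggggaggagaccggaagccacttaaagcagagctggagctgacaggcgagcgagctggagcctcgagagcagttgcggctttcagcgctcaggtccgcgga
Arnt: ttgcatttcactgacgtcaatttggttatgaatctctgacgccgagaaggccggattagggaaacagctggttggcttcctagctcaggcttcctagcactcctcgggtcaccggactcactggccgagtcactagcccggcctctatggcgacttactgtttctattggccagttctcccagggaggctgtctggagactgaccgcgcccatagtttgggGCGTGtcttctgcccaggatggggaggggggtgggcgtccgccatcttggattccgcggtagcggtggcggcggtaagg

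The starts of Cyp1a1 and Cyp1a2 lie 13958 bases apart and the genes run away from each other. Cyp1a2 had no GCGTG on either strand of its window. Cyp1a1 had 1 match, at position -54, Tiparp 1 at -170 and Arnt 1 at -29. Outside the printed windows, Cyp1b1 had 1 match and Ahrr had 3. A match to these 5 letters is common, since 32.4% of all 32851 promoter windows held at least 1 on either strand. The letters TATAAA, searched on both strands, stood at -29 in Cyp1a2 and at -30 in Cyp1a1 and in 0 of the other 4 windows, against 13.6% of all windows. The full palindromic estrogen response element, searched likewise, was in 0 of the 6 windows and in 0.07% of all windows. None of these matches was tested for binding.

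The arrays carried log2 levels from RMA, a method that subtracts background, equalises the arrays and summarises the probes of a gene. Array medians lay between 4.64 and 4.67 with EE2 and between 4.47 and 4.54 in the other 3 groups. With each array centred on its median the median change of all genes with EE2 moved from -0.07 to -0.23, so changes near this size with EE2 depend on the scaling. Of the genes called with EE2 41.9% were higher, and 17.4% with centred arrays, and of those called with CPZ 55.7% and 35.5%. With centred arrays 9784 of all 16464 genes were called lower with EE2 and 2062 higher. The list counts given below for centred arrays stand beside these. All 9 measured hepatocyte markers lay above the lower quartile of all genes in every group, with list means of 12.64 to 12.82 over the 20 arrays. A change is given below as a log2 difference between group means, with its limma standard error (SE) or 95% interval. Every adjusted p is from limma with Benjamini-Hochberg adjustment over all 16464 genes, and a gene is said to have risen or fallen where it was under 0.05.

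**Figure D1:**
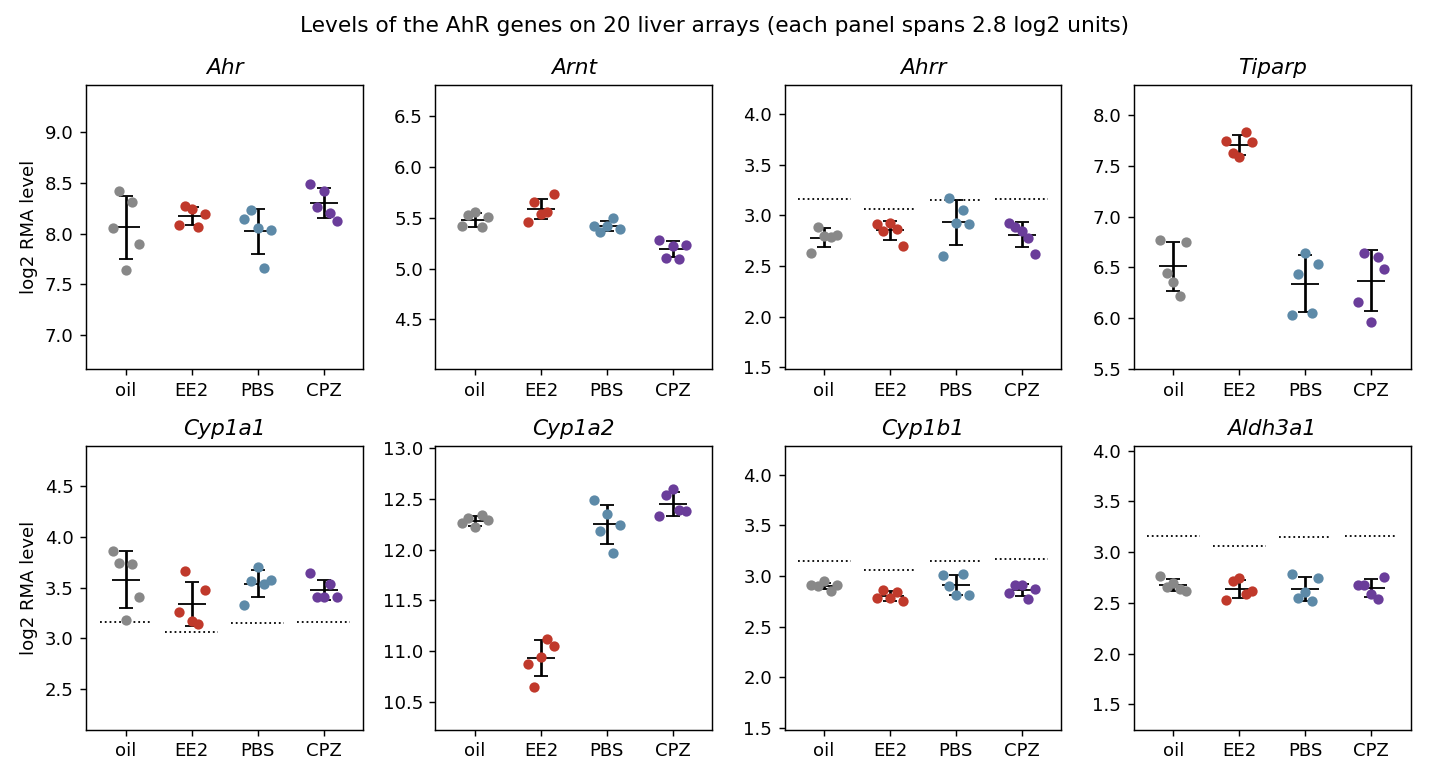
Log2 RMA level (vertical axis) of each of the 8 genes on the 5 arrays of each group (horizontal axis), with 1 point per array, the group mean and SD in black and, where it falls in the panel, the lower quartile of all genes as a dotted line. EE2 arrays sit apart from the others in Cyp1a2, at 10.65 to 11.12, and in Tiparp, at 7.59 to 7.84, while all but 1 of the points of Cyp1b1, Ahrr and Aldh3a1 lie under the dotted line.

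The comparison of EE2 with sunflower oil asks what the estrogen changed in these genes. Cyp1a2 fell to a level 2.56-fold lower, and Tiparp rose 2.3-fold. The receptor gene Ahr, its partner Arnt and the other 4 genes did not pass the test. Thus 2 of 8 genes were called (25%), while EE2 changed 45.9% of all genes tested, 19.2% upward and 26.7% downward. These shares also stand beside the EE2 counts of the lists below.

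Cyp1a2 (Entrez gene 13077), the constitutive liver P450 of the set, stood at 12.26, 12.31, 12.22, 12.34 and 12.29 on oil arrays 2, 5, 6, 8 and 16. With EE2 it stood at 10.87, 10.65, 10.94, 11.12 and 11.05 on arrays 9, 13, 15, 17 and 18. Every EE2 array lay more than a full log2 unit below every oil array, so the groups did not overlap. Non-overlap in the downward direction was found for 17.2% of all genes with EE2. The group means were 12.28 ± 0.05 (SD, n = 5) with oil and 10.93 ± 0.18 (SD, n = 5) with EE2. Cyp1a2 fell by 1.36 (SE 0.09, 95% interval -1.54 to -1.17, adjusted p = 1.07e-10). Of the 4394 genes that fell with EE2, 109 fell by more. On PBS arrays 7, 10, 14, 19 and 20 Cyp1a2 stood at 12.49, 12.18, 12.35, 11.97 and 12.24, and on CPZ arrays 1, 3, 4, 11 and 12 at 12.33, 12.54, 12.60, 12.39 and 12.38. From low to high the order of the means was EE2, PBS, oil and CPZ, in which the last 3 groups overlapped with their neighbours.

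Tiparp (Entrez gene 99929) encodes a mono-ADP-ribosyltransferase that AhR induces and that represses AhR in turn. It stood at 6.77, 6.45, 6.36, 6.22 and 6.75 on oil arrays 2, 5, 6, 8 and 16, and at 7.75, 7.63, 7.59, 7.84 and 7.74 on EE2 arrays 9, 13, 15, 17 and 18. All EE2 arrays were higher than all oil arrays, as for 14.6% of all genes, and they were closer together than the oil arrays. The means were 6.51 ± 0.24 (SD, n = 5) and 7.71 ± 0.10 (SD, n = 5). Tiparp rose by 1.20 (SE 0.14, 95% interval 0.91 to 1.5, adjusted p = 5.55e-07), and of the 3166 genes that rose, 472 rose by more. With PBS the values were 6.03, 6.44, 6.64, 6.05 and 6.53 on arrays 7, 10, 14, 19 and 20, and with CPZ 6.16, 6.64, 5.96, 6.60 and 6.49 on arrays 1, 3, 4, 11 and 12. These values lay in the range of the oil arrays or a little below it, and the order of the means was PBS, CPZ, oil and EE2, with overlap between all but EE2. Cyp1a2 and Tiparp, which are both known AhR targets, thus moved in opposite directions on the same 5 arrays.

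Ahr (Entrez gene 11622), the receptor itself, was measured at 8.05, 8.42, 7.64, 8.31 and 7.90 on oil arrays 2, 5, 6, 8 and 16. On EE2 arrays 9, 13, 15, 17 and 18 it was measured at 8.08, 8.27, 8.24, 8.06 and 8.19, all inside the oil range. The difference was 0.10 (SE 0.12, adjusted p = 0.514), or -0.06 (adjusted p = 0.68) with centred arrays. Its 95% interval ran from -0.15 to 0.36, so a rise above 1.28-fold lay outside it. The oil arrays were the most spread, with an SD of 0.31 against 0.09 with EE2.

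Arnt (Entrez gene 11863), the partner with which AhR binds its DNA element and which also serves the hypoxia factors, stood at 5.42, 5.53, 5.56, 5.41 and 5.51 with oil. With EE2 it stood at 5.46, 5.66, 5.54, 5.56 and 5.73, in the array order used above. The groups overlapped and the difference of 0.10 (95% interval -0.01 to 0.22) did not pass the test (adjusted p = 0.137), while with centred arrays it was -0.06 (adjusted p = 0.349).

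Cyp1a1 (Entrez gene 13076), the P450 most often used to read AhR activation, lay between the 25.6th and the 42.3rd percentile of its array. It stood at 3.86, 3.74, 3.18, 3.73 and 3.41 with oil and at 3.26, 3.66, 3.17, 3.14 and 3.48 with EE2. The ranges overlapped, and the difference of -0.24 (SE 0.12, 95% interval -0.48 to 0.00) did not pass (adjusted p = 0.0931). It passed with centred arrays (-0.40, adjusted p = 0.00376), without oil array 6 (-0.34, adjusted p = 0.0131) and without EE2 array 13 (-0.32, adjusted p = 0.0287), and over all 17 alternatives the adjusted p ran from 0.00376 to 0.242. With PBS it ranged from 3.33 to 3.70 and with CPZ from 3.41 to 3.64. All 4 groups thus overlapped in Cyp1a1.

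Cyp1b1, a P450 known mainly from tissues other than liver, Ahrr, the receptor's repressor, and Aldh3a1, an aldehyde dehydrogenase known from cornea, lay under the lower quartile of their array on all 20 arrays, except Ahrr on PBS array 10 at 3.17. Cyp1b1 ranged from 2.75 to 3.02 over the 20 arrays, Ahrr from 2.60 to 3.17 and Aldh3a1 from 2.52 to 2.78. With EE2 the differences were -0.10 for Cyp1b1 (adjusted p = 0.0991), 0.06 for Ahrr (adjusted p = 0.567) and -0.03 for Aldh3a1 (adjusted p = 0.677). With centred arrays they became -0.26 (adjusted p = 2.46e-04), -0.10 (adjusted p = 0.3) and -0.19 (adjusted p = 0.00992), next to a median of all genes of -0.23. The lower quartile of all genes was 3.05 to 3.08 on the EE2 arrays and 3.15 to 3.18 on the oil arrays. Relative to it, oil and EE2 means were -0.25 and -0.26 for Cyp1b1, -0.38 and -0.21 for Ahrr and -0.48 and -0.42 for Aldh3a1. On the deposited scale the upper ends of the 95% intervals were 0.00 for Cyp1b1, 0.24 for Ahrr and 0.09 for Aldh3a1.

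**Figure D2:**
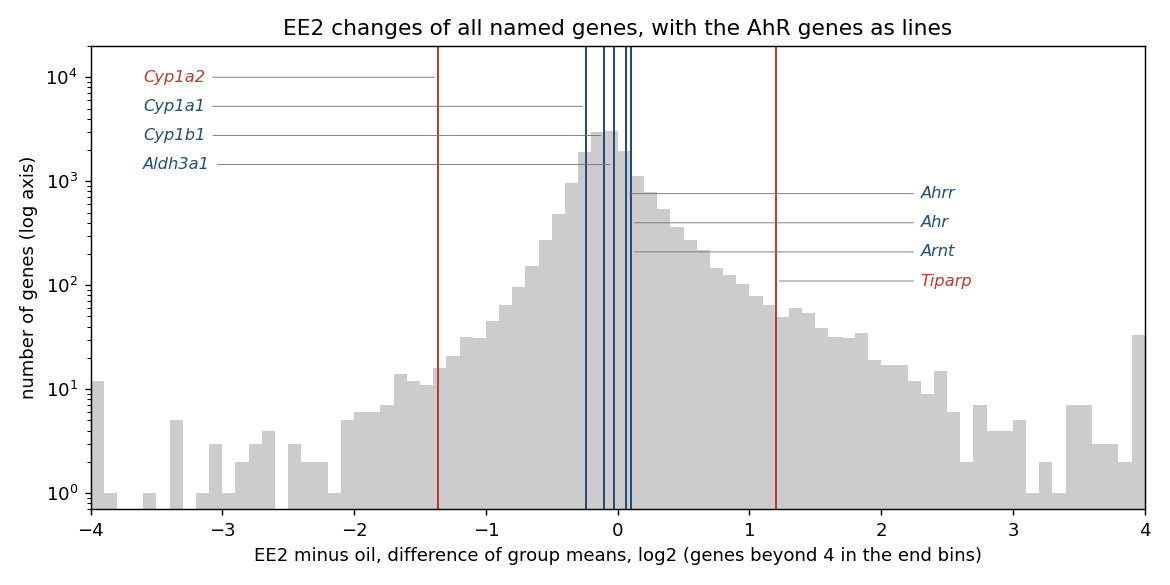
Number of genes (vertical, log axis) by EE2 minus oil difference on the log2 scale (horizontal axis, bins of 0.1) for all 16464 genes, with each of the 8 AhR genes as a line, red where called and blue where not. Cyp1a2 at -1.36 and Tiparp at 1.20 lie in the tails, and the other 6 genes lie between -0.24 and 0.10, where Ahr, Arnt and Ahrr turn negative with centred arrays.

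CPZ against PBS asks the same of the antipsychotic. None of the 8 genes passed the test with CPZ (limma, adjusted p under 0.05), where 0.796% of all genes did. An unadjusted limma p under 0.05 was found for 3 of the 8, beside 2003 of all 16464 genes. These 3 were Arnt, Cyp1a2 and Ahr, and Arnt came closest to a call. The count of 2003 also stands beside the unadjusted CPZ counts of the lists below.

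Arnt stood at 5.42, 5.36, 5.42, 5.50 and 5.39 on PBS arrays 7, 10, 14, 19 and 20 and at 5.28, 5.10, 5.22, 5.09 and 5.23 on CPZ arrays 1, 3, 4, 11 and 12. All CPZ arrays lay below all PBS arrays, which held in this direction for 1.41% of all genes. The means were 5.42 ± 0.05 (SD, n = 5) with PBS and 5.19 ± 0.08 (SD, n = 5) with CPZ, a difference of -0.23 (SE 0.06, 95% interval -0.35 to -0.11, adjusted p = 0.0539). The difference was negative in all 17 alternatives, from -0.25 to -0.20, with adjusted p from 0.0305 to 0.264, and passed in 4 of them. Its 95% interval corresponds to a level 1.08-fold to 1.27-fold lower.

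Cyp1a2 was 12.25 ± 0.19 (SD, n = 5) with PBS and 12.45 ± 0.12 (SD, n = 5) with CPZ, a difference of 0.20 (95% interval 0.01 to 0.39, adjusted p = 0.365) in overlapping groups. Ahr stood at 8.14, 8.23, 8.05, 7.66 and 8.03 on PBS arrays 7, 10, 14, 19 and 20 and at 8.49, 8.26, 8.42, 8.20 and 8.12 on CPZ arrays 1, 3, 4, 11 and 12. The ranges overlapped, and the difference of 0.27 (95% interval 0.02 to 0.53) had adjusted p = 0.372. Tiparp differed by 0.03 (95% interval -0.26 to 0.33, adjusted p = 0.958), so a rise of the size seen with EE2 lay outside its interval. Cyp1a1 differed by -0.06 (adjusted p = 0.901), Cyp1b1 by -0.05 (adjusted p = 0.737), Ahrr by -0.12 (adjusted p = 0.627) and Aldh3a1 by 0.01 (adjusted p = 0.983).

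The vehicles themselves were compared to see whether oil gavage shifted these genes relative to PBS. None of the 8 passed (limma, adjusted p under 0.05), where 0.0486% of all genes did. An unadjusted limma p under 0.05 was found for 0 of the 8, beside 1414 of all 16464 genes. The differences, oil minus PBS, ran from -0.15 for Ahrr (adjusted p = 0.679) to 0.17 for Tiparp (adjusted p = 0.8), and that of Cyp1a2 was 0.03 (95% interval -0.15 to 0.22). The oil arrays also serve as controls of EE2 and the PBS arrays as controls of CPZ, so these comparisons share samples.

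The responses to EE2 and CPZ were tested against each other as a difference of differences. Cyp1a2, Tiparp and Arnt passed, 3 of 8 genes, where 31.6% of all genes did. For Cyp1a2 the EE2 response was below the CPZ response, at -1.56 (log2, with an SE of 0.13, adjusted p = 8.12e-09). For Tiparp it was higher by 1.17 (SE 0.20, adjusted p = 1.25e-04). For Arnt it was higher by 0.33 (SE 0.08, adjusted p = 0.00285), from an EE2 response of 0.10 and a CPZ response of -0.23, neither of which passed alone. The Arnt difference was 0.21 (adjusted p = 0.0552) with quantile normalization and 0.28 (adjusted p = 0.0633) when the sample number entered the model, and over its 26 alternatives adjusted p ran from 0.00134 to 0.0633. For Ahr the responses differed by -0.17 (95% interval -0.54 to 0.19, adjusted p = 0.482), and for Cyp1a1 by -0.18 (95% interval -0.52 to 0.16, adjusted p = 0.425). The remaining 3 genes had differences from -0.05 to 0.18, and that of Ahrr, 0.18, became 0.26 (adjusted p = 0.0479) without PBS array 7, while that of Cyp1b1, -0.05, became -0.19 (adjusted p = 0.0445) with centred arrays.

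**Figure D3:**
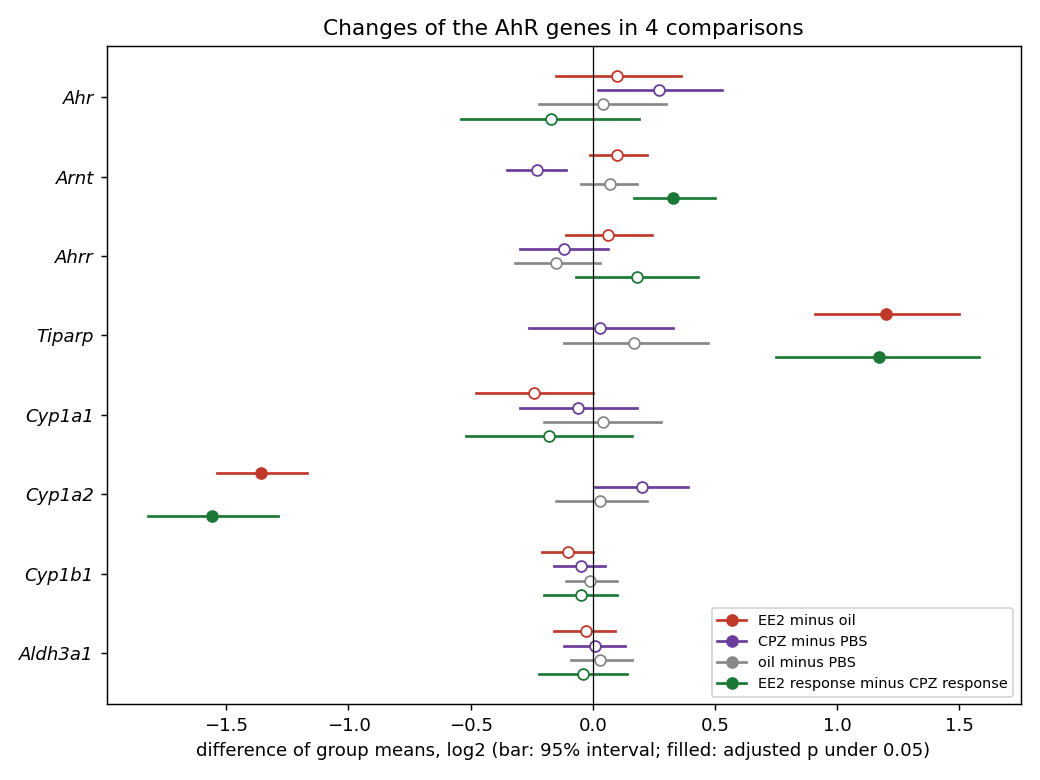
Difference of group means on the log2 scale (horizontal axis) for the 8 genes (vertical axis) in the 4 comparisons, with the 95% interval as a bar and a filled point where the adjusted p was under 0.05. The filled points are Cyp1a2 at -1.36 and Tiparp at 1.20 for EE2 minus oil, and Cyp1a2 at -1.56, Tiparp at 1.17 and Arnt at 0.33 for the difference of the responses, and the EE2 points of Ahr, Arnt and Ahrr turn negative with centred arrays.

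Other genes known to respond to AhR were read from a list of 21, of which 14 were measured. With EE2 8 of them rose and 4 fell (12 of 14 called, median change 0.50, beside a median of -0.07 for all genes), and with centred arrays 8 rose and 5 fell. Nqo1, a quinone reductase that AhR and NRF2 both induce, rose from 5.66 ± 0.31 to 7.95 ± 0.37 (SD, n = 5 each; adjusted p = 6.9e-10). Its level with PBS was 6.22 ± 0.13, and oil minus PBS was -0.56 (SE 0.17), which was not called (adjusted p = 0.282). Cd36, a fatty acid transporter, rose by 2.32 (SE 0.14) and Socs2, a suppressor of growth hormone signalling, by 2.22 (SE 0.35). Cdkn1a, a cell cycle inhibitor, rose by 0.94 (SE 0.12) and Ugdh, which makes UDP-glucuronic acid, by 0.54 (SE 0.09). Pmm1, a phosphomannomutase, fell by 0.69 (SE 0.10). Most of these genes are known to answer to other regulators as well, so the list is not a reading of AhR alone. With CPZ none of the 14 was called by limma and 0 had an unadjusted p under 0.05.

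Of 18 chaperones and cofactors of the receptor 13 were measured, and 3 rose and 2 fell with EE2 (median -0.04). These 5 calls are 38.5% of the measured list, under the 45.9% of all genes. With centred arrays 1 rose and 6 fell, and without EE2 array 17 4 rose and 4 fell. Rela, the NF-kappaB subunit reported to bind AhR, rose by 0.56 (SE 0.06, adjusted p = 9.66e-08), and Med1, a Mediator subunit, fell by 0.36 (SE 0.05, adjusted p = 2.83e-06). Smarca4, a chromatin remodeller, rose by 0.22 (adjusted p = 0.0145) and Relb by 0.40 (adjusted p = 0.0204), though with centred arrays they stood at 0.06 (adjusted p = 0.449) and 0.24 (adjusted p = 0.114). Ncoa2, a coactivator, fell by 0.17 (adjusted p = 0.0118). With CPZ none of the 13 was called by limma, and 2 had an unadjusted p under 0.05, both lower.

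The bHLH-PAS relatives of Ahr and Arnt were all measured, and 1 of 13 rose and 2 fell with EE2 (median -0.13). Thus 23.1% of this list was called, under the 45.9% of all genes. Hif1a, the hypoxia factor that shares ARNT with AhR, rose by 0.23 (SE 0.04, adjusted p = 1.99e-04), which was 0.07 (adjusted p = 0.15) with centred arrays. Sim2 and Npas3, factors known from the nervous system, fell by 0.23 and fell by 0.13 from levels of 2.84 and 2.87, under the lower quartile. That quartile was itself lower with EE2 than with oil. Npas3 was not called in many of the alternatives, for example at -0.04 (adjusted p = 0.554) with quantile normalization. With centred arrays 11 of the 13 fell and none rose, and in the oil group 8 of the 13 lay under the lower quartile. With CPZ none of the 13 was called by limma, and 3 had an unadjusted p under 0.05.

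Tryptophan is broken down to kynurenines, some of which are AhR ligands, or turned to serotonin. The list of enzymes for these routes held 14 measured genes, among them the serotonin route genes Tph1, Maoa and Maob. With EE2 7 fell and 1 rose (median -0.17, 57.1% called beside 45.9% of all genes), and 10 fell and 1 rose with centred arrays. Aadat, an aminotransferase of kynurenine, fell by 1.43 (SE 0.10, adjusted p = 1.39e-10), and Kyat1, another, fell by 0.99 (SE 0.08). Haao, a dioxygenase of the same route, fell by 0.63 (SE 0.06), Afmid, the formamidase, fell by 0.63 (SE 0.11), and Kmo, the hydroxylase, fell by 0.34 (SE 0.08). Maoa, a monoamine oxidase that acts on serotonin and not on kynurenines, rose by 0.66 (SE 0.12, adjusted p = 1.27e-04). Tdo2, which opens the route in liver and was named after its values were seen, fell by 0.22 (SE 0.06, adjusted p = 0.00333). With CPZ none of the 14 was called by limma, and 1 had an unadjusted p under 0.05.

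P450 enzymes need heme and electron donors, and of 12 measured genes for these 7 fell and 2 rose with EE2 (median -0.20). Thus 75% were called, beside 45.9% of all genes, and 8 fell and 2 rose with centred arrays. Cyb5b, a cytochrome b5, fell by 1.03 (SE 0.07, adjusted p = 1.03e-10), and its reductase Cyb5r3 fell by 0.59 (SE 0.07). Por, the P450 reductase gene of the same list, was not measured, so the supply of electrons to P450 enzymes was not read here. The heme synthesis genes Alad, Cpox and Fech fell by 0.58, fell by 0.63 and fell by 0.28, and the heme-degrading Hmox1 rose by 0.66 (SE 0.15, adjusted p = 0.00121). Alas1, the rate-limiting enzyme of heme synthesis, was named after its values were seen and varied within groups. It averaged 11.56 ± 0.80 with oil, 12.57 ± 0.14 with EE2, 12.21 ± 0.46 with PBS and 11.14 ± 0.81 with CPZ (SD, n = 5 each). With EE2 it rose by 1.01 (SE 0.35, adjusted p = 0.0225), which was 0.77 (adjusted p = 0.0768) without oil array 2, 0.83 (adjusted p = 0.0682) without oil array 5 and 0.82 (adjusted p = 0.116) when the sample number entered the model. With CPZ none of the 12 was called by limma, and 2 had an unadjusted p under 0.05, both lower.

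The fall of Cyp1a2 came with lower levels of other genes of hepatocytes around the central vein. Of 19 pericentral genes, a list without Cyp1a2, 14 fell and 1 rose with EE2 (median -0.48), 78.9% called beside 45.9% of all genes. With centred arrays 17 fell and none rose, where 9784 of all 16464 genes fell. Car3, a carbonic anhydrase, fell from 13.38 ± 0.06 to 8.52 ± 1.19, Rgn, a calcium-binding protein gene, from 12.70 ± 0.03 to 11.92 ± 0.15, and Rhbg, an ammonium transporter, from 6.46 ± 0.28 to 4.97 ± 0.25 (SD, n = 5 each). Glul, the glutamine synthetase of the innermost pericentral cells, differed by 0.01 (adjusted p = 0.902) but by -0.15 (adjusted p = 0.0165) with centred arrays. Cyp27a1, a sterol hydroxylase, rose by 0.20 (adjusted p = 0.0167), which was 0.04 (adjusted p = 0.613) with centred arrays, and both were named after their values were seen. The mean level of the list per array was 7.72 to 7.90 with EE2 and 8.38 to 8.60 with oil, without overlap. Of 10 periportal genes 4 rose and 2 fell (median 0.02, 60% called), and of 9 general hepatocyte markers 1 rose and 4 fell (median -0.10, 55.6% called), or 4 and 3 and none and 6 with centred arrays. Macrophage markers moved the other way: 14 of 15 rose and none fell (median 1.47), also with centred arrays, with list means of 8.87 to 9.51 with EE2 and 7.57 to 7.93 with oil, and 0 of the 15 under the lower quartile in either group. Of 13 lymphocyte markers 8 rose and 2 fell, or 8 and 3 with centred arrays, with list means of 4.92 to 5.32 against 4.36 to 4.43 with oil. Of 9 neutrophil markers 3 rose and none fell, namely S100a8, S100a9 and Mmp9, named after their values were seen, and 3 rose and 2 fell with centred arrays, with list means of 4.63 to 5.06 against 3.69 to 4.01. Of 13 stellate cell and fibroblast markers 4 rose and 4 fell, and 3 and 5 did with centred arrays. Of 7 cholangiocyte markers 1 rose, Prom1, and 1 fell, Epcam, both named after their values were seen, while 1 rose and 4 fell with centred arrays. Called were 93.3% of macrophage, 76.9% of lymphocyte, 33.3% of neutrophil, 61.5% of stellate cell and 28.6% of cholangiocyte markers, beside 45.9% of all genes. In whole liver fewer cells of a type and less RNA per cell cannot be told apart, and the part of these cell types in the changes of Cyp1a2 and Tiparp was not tested.

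With CPZ 4 of the 15 macrophage markers (26.7%), Mrc1, C1qa, Cd68 and Adgre1, rose and none fell (median 0.60). Over all genes 0.796% were called. All 15 markers had an unadjusted limma p under 0.05, all higher, with changes from 0.39 to 1.24, beside 2003 of all 16464 genes. Their list means were 7.77 to 8.64 with CPZ and 7.18 to 7.64 with PBS. Between vehicles all 15 were higher with oil than with PBS, by 0.13 to 0.67 (median 0.27). None of these differences was called, and 4 had an unadjusted limma p under 0.05, beside 1414 of all 16464 genes. The oil list means, 7.57 to 7.93, overlapped those of CPZ. The part of the vehicle in the rise with CPZ was not tested. Arnt was lowest on the CPZ arrays, and the part of the macrophages in its level was not tested. Of the 19 pericentral genes 1 rose with CPZ, Lgr5, a receptor of the Wnt pathway, by 1.18 (adjusted p = 0.00407), and none fell (median 0.06). No gene of the periportal, hepatocyte, lymphocyte, neutrophil, stellate cell or cholangiocyte lists was called by limma with CPZ, and an unadjusted p under 0.05 was found for 3 periportal and 1 lymphocyte genes. Of 12 endothelial markers 3 rose with CPZ, Clec4g, Stab2 and Tek, and none fell, while 8 had an unadjusted p under 0.05, all higher. All 12 were also higher with oil than with PBS, by 0.05 to 0.34 (median 0.19). None of these vehicle differences was called, and 6 had an unadjusted limma p under 0.05. With EE2 2 of the 12 rose and 5 fell (58.3% called, beside 45.9% of all genes), or 1 and 6 with centred arrays. The cell markers called with CPZ were named after their values were seen. With the sample number in the model none of them was called, at adjusted p from 0.0627 to 0.102 and changes of 0.39 to 0.89. With only the PBS and CPZ arrays C1qa, Cd68, Adgre1 and Tek were not called either, at adjusted p from 0.0555 to 0.0939. Over the 17 alternatives Adgre1 and Tek were each called in 9, Cd68 in 12 and C1qa in 14.

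**Figure D4:**
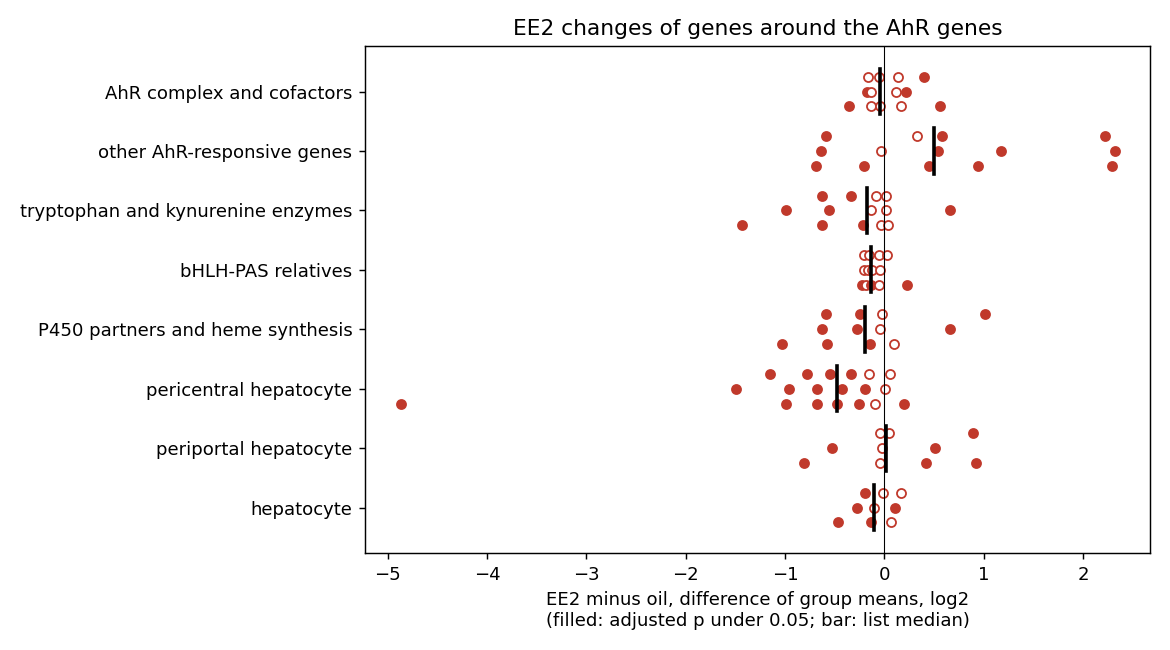
EE2 minus oil difference on the log2 scale (horizontal axis) of each measured gene of 8 lists (vertical axis), with 1 point per gene, filled where the adjusted p was under 0.05, and a black bar at the list median. The pericentral list has its median at -0.48 and the other AhR-responsive genes at 0.50, while the lists of cofactors and of bHLH-PAS relatives lie close to 0 and gain falls with centred arrays.

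The 8 genes were also compared in how they varied within groups. After subtracting each group mean, Cyp1a1 and Ahr correlated at r = 0.530 over the 20 arrays, the highest of the 28 pairs, and Ahrr and Aldh3a1 at -0.565, the lowest, though both of these lay under the lower quartile. Cyp1a1 and Ahr were both lowest of the oil group on oil array 6, at 3.18 and 7.64. Both had their largest SD with oil, at 0.28 and 0.31, and the weight of single arrays in r was not tested. Cyp1a2 and Tiparp had r = 0.0376, and Cyp1a2 and Ahr r = 0.282. Among genes with a mean level above the lower quartile, the most similar to Cyp1a2 in these deviations were Slc25a28 (r = 0.783), Ctu2 (0.766) and Lias (0.740). Those most similar to Cyp1a1 were Zdhhc16 (r = 0.775), Snx12 (0.772) and Septin11 (0.766). Those most similar to Ahr were Npas1 (r = 0.838), Rreb1 (0.779) and Phospho1 (0.775). Those most similar to Tiparp were Reck (r = 0.860), Adssl1 (0.799) and Mfsd2a (0.773). These values describe the same 20 arrays, were picked as the highest of a great many and carry no p. Of the 3 genes most similar to Tiparp within groups, Mfsd2a rose with EE2 by 3.51 (adjusted p = 1.53e-07), whereas Reck fell by 1.11 (adjusted p = 1.79e-05) and Adssl1 fell by 0.59 (adjusted p = 2.68e-05).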

How the data were processed

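Per the labels, liver RNA of 20 samples (4 groups) was labelled for Affymetrix arrays with a 3' IVT Express kit. Per the submitters' processing notes the authors used RMA, and the deposited values are log2 levels per probe set. The sources used here give neither the genome build nor the set of arrays that RMA took together. Values were used as deposited, without a filter. Of 17306 probe sets 16464 were tested, those with 1 gene symbol, and 842 are unnamed here. The number of arrays limits the precision.

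All 20 arrays entered 1 model of the 4 group means in limma 3.58.1 under R 4.3.3 (lmFit and eBayes; 16 residual and 4.25 prior degrees of freedom). Calls needed a two-sided limma p under 0.05 after Benjamini-Hochberg adjustment across the 16464 genes. The model was tested on simulated data. 

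The 8 genes and the lists were chosen with earlier results of these data known. Beside them 14 lists with 198 genes were written from general knowledge, and 171 were measured, older symbols being matched through RefSeq; the others were not analysed here. All 8 genes are named, and so are the 3 genes most correlated with Cyp1a2, Cyp1a1, Ahr and Tiparp. Of each list around the AhR pathway up to 6 called genes with the smallest limma p with EE2 are named (3 for pericentral genes). Other genes given with values or named as called were picked after their values were seen. Alternatives were quantile normalization, median centring, leaving out the lowest 30% of genes, array weights, the sample number in the model, a robust prior with an intensity trend, a fit on the compared arrays alone, and leaving out each array.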

Additional observations from a re-analysis of the deposited data

Results flagged for a closer look

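The responses to EE2 and CPZ differed by limma's test of the difference for Cyp1a2 (-1.56), Tiparp (1.17) and Arnt (0.33), as described above. They also differed for 40 of the 58 other genes given with values or named as called, with adjusted p from 2.05e-08 to 0.0265. Among the genes around the AhR pathway, the EE2 response was higher for Socs2 by 2.8, Nqo1 by 2.45, Alas1 by 2.08, Cd36 by 2.06, Cdkn1a by 0.78, Maoa by 0.71, Ugdh by 0.62, Rela by 0.59 and Hif1a by 0.35 on the log2 scale. It was lower for Aadat at -1.36, Cyb5b at -1.11, Kyat1 at -0.96, Alad at -0.66, Pmm1 at -0.64, Haao at -0.63, Cyb5r3 at -0.61, Cpox at -0.60, Afmid at -0.50, Kmo at -0.40 and Med1 at -0.30. With the sample number in the model the difference was not called for Alas1 (1.67, adjusted p = 0.0815), Cpox (-0.37, adjusted p = 0.13), Afmid (-0.52, adjusted p = 0.0878), Kmo (-0.35, adjusted p = 0.128) and Med1 (-0.25, adjusted p = 0.0598).

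Among pericentral genes the difference was -4.83 for Car3, -2.16 for Lgr5, -1.53 for Rhbg and -0.78 for Rgn. Among other cell markers it was 3.41 for S100a8, 2.98 for S100a9, 1.63 for Prom1, 0.90 for Mmp9, 0.81 for Adgre1, 0.67 for Cd68, 0.58 for C1qa, -0.42 for Epcam, -1.11 for Tek and -1.13 for Clec4g. Among the genes chosen for their likeness it was 2.97 for Mfsd2a, 0.88 for Snx12, 0.57 for Septin11, -0.38 for Zdhhc16, -0.73 for Adssl1 and -0.90 for Reck. With the sample number in the model Adgre1, Cd68, C1qa, Epcam, Septin11 and Zdhhc16 were not called, at adjusted p from 0.0612 to 0.274. Cd68 was also not called with centred arrays (0.53, adjusted p = 0.0513), nor without EE2 array 15, PBS array 10, CPZ array 3 or CPZ array 4, at adjusted p from 0.0515 to 0.053.

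None of the 8 AhR genes had an array far from the rest of its group, in 32 groups of 5 arrays. Among the other named genes 9 single arrays lay far from the other 4 of their group by Dixon's test, out of 264 groups looked at in all, where chance gives about 1 in 20. Smarca4 stood at 8.05 on PBS array 7 (others 7.64 to 7.73), Kmo at 10.91 on oil array 16 (others 10.76 to 10.80) and Sim2 at 2.59 on EE2 array 17 (others 2.61 to 2.62). Fech stood at 9.94 on CPZ array 11 (others 10.07 to 10.08), Hmox1 at 6.96 on EE2 array 9 (others 6.31 to 6.50) and Rgn at 12.79 on CPZ array 3 (others 12.71 to 12.73). Glul stood at 11.52 on PBS array 19 (others 11.73 to 11.79), Tek at 5.79 on EE2 array 18 (others 6.13 to 6.24) and Phospho1 at 3.06 on CPZ array 3 (others 3.20 to 3.23).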

How the results depend on the processing

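Cyp1a2 and Tiparp kept their call and direction with EE2 in all 17 alternatives, at -1.52 to -1.29 and at 1.04 to 1.27, and in the difference of the responses in all 26. With centred arrays 11846 of all 16464 genes and 5 of the 8 AhR genes were called with EE2, and 8194 genes in the difference of the responses. With CPZ 1 AhR gene, Arnt, was called with quantile normalization, centred arrays, array weights or without the lowest 30% of genes, which leaves out Cyp1b1, Ahrr and Aldh3a1 and tests fewer genes. With the sample number in the model 20 genes were called with CPZ, 2 between vehicles and 3048 in the difference of the responses. With array weights 237 were called with CPZ and with only its arrays 64. Between vehicles 13 were called with a robust prior and 0 with only their arrays (1337 at an unadjusted p under 0.05), against 8. Leaving out 1 array gave 6885 to 7246 genes for EE2, 47 to 148 for CPZ against 131, 2 to 19 between vehicles and 4730 to 5264 for the difference of the responses. The CPZ count fell to 47 without PBS array 14, 86 without CPZ array 1, 53 without CPZ array 3 and 65 without CPZ array 4. Between vehicles it was 4 without oil array 2 or 6 or PBS array 20, 3 without oil array 5 or 8, 2 without PBS array 14 and 19 without PBS array 19. Leaving out 1 array gave 2 to 3 AhR genes with EE2, 3 to 4 in the difference of the responses and 0 to 0 with CPZ and between vehicles. The causes of these shifts were not tested. With centred arrays Glul turned from 0.01 to -0.15 with EE2. Levels under the lower quartile limit Cyp1b1, Ahrr and Aldh3a1. No paired analysis was possible because the groups share none of their sample numbers.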
